A study of Mus musculus with 12 samples.

Results

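Antiviral and nuclear-body TRIM proteins were followed as 9 genes: the TRIM family members Trim14, Trim21, Trim26, Trim30a, Trim34a, Trim56 and Pml, and the PML body partners Sp100 and Daxx. They were found through the RefSeq accessions that the arrays give for their probes. All 9 were on the array, with 11 probes among 55681, and all 9 were among the 15445 genes tested. Each of Trim34a and Pml had 2 probes, and the other 7 genes had 1.

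TRIM proteins combine a coiled coil and B-box with, in most members, a RING domain that makes them ubiquitin ligases, and many act in the cell's defence against viruses. Double-stranded RNA in the cytosol is sensed by RIG-I and MDA5, which signal through MAVS to produce interferon-beta, and interferon then induces a large set of antiviral genes. PML, itself a TRIM protein, builds nuclear bodies in which SP100 and DAXX reside, and these bodies take part in silencing the genomes of incoming viruses.

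The cells were cultured fibroblasts of mouse embryos (MEFs), connective tissue cells, either wild type or GADD34ΔC/ΔC (called ΔC here). GADD34, the product of Ppp1r15a, directs a phosphatase to the initiation factor eIF2-alpha and so restores translation after stress. Cells of each genotype were untreated or were transfected for 6 h with a lipid reagent carrying high molecular weight poly(I:C), a man-made RNA duplex that mimics viral RNA, at 2.5 µg/ml. Each of the 4 groups had 3 samples from independent experiments, 1 sample to an array. Among the samples there is none with the carrier lipid by itself, so effects of poly(I:C) and of its carrier cannot be told apart. The labels name no line or embryo of origin, so genotype and the origin of the cells cannot be told apart either. RNA came from the supernatant of a detergent lysate. In bulk RNA, fewer cells expressing a gene and less RNA per cell cannot be told apart.

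Levels are given as log2 of the processed intensity relative to the 75th percentile of the same array, so that 1 unit is a doubling and a negative level lies below that percentile. A level describes 1 probe and was not set against the level of another probe. Differences are log2 fold changes ± SE from limma, with Benjamini-Hochberg adjustment over all 15445 genes, and a gene was called at an adjusted p under 0.05.

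The 75th-percentile intensity ranged from 753 to 1117 over the 12 arrays, 60.4 to 67.3% of probes were well above background, and no spot was saturated. The Ppp1r15a probe averaged 2.88 ± 0.42 (SD, n = 3) in untreated wild-type cells and was not well above background on any untreated ΔC array. The bound on this difference was at least 485-fold, and the fitted limma difference had an adjusted p of 6.15e-05. Which stretch of the transcript this probe covers was not tested. Of 10 fibroblast markers, 9 were well above background on all 12 arrays. Their summed level was between 9.74 and 10.3 in wild-type cells and between 8.60 and 9.50 in ΔC cells. Single markers ranged unequally over the 12 arrays, such as Col1a2 from 0.86 to 6.36 and Vim from 7.63 to 8.46. Thy1 was well above background on only 1 of 3 wild-type poly(I:C) arrays. The epithelial markers Epcam and Cdh1 and the muscle marker Des were well above background on all 6 ΔC arrays and on no wild-type array, whereas the epithelial marker Krt8 was so on all 6 wild-type arrays and on 3 of 6 ΔC arrays. The epithelial marker Krt18 was well above background on all 12 arrays, and the muscle marker Pax7 on all but 1 ΔC array. Of 8 leukocyte and macrophage markers, 5 were tested and were well above background on all 12 arrays, with a summed level of 3.83 to 4.56 in wild-type and 3.32 to 3.70 in ΔC cells. Of 4 endothelial markers, 2 (Pecam1 and Kdr) were tested and were well above background on all 12 arrays. Their summed level was 3.92 to 4.47 in wild-type and 3.63 to 4.16 in ΔC cells. The part of these markers in the genotype differences below was not tested. In both genotypes, the poly(I:C) array numbered 3 stood apart for most of the 9 genes. It held the lowest level among the 3 poly(I:C) arrays for 8 of the 9 genes in wild-type cells (all but Sp100) and for 7 of the 9 in ΔC cells (all but Sp100 and Trim14). How often this held over all genes was not determined. Counts are therefore also given without the 4 arrays numbered 3. These arrays were picked out by the levels of the same 9 genes, so higher counts without them are no separate support.

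The promoter windows of 5 of the genes are shown: Trim21, Trim34a, Trim30a and Trim26, in whose windows an interferon motif was found, and Sp100, the one of the 9 genes that did not pass the test with poly(I:C) in wild-type cells. Windows run from 250 bases before to 50 bases after the annotated start and are RefSeq sequences of GRCm38.p6, read on the strand of the gene. RefSeq windows were matched for 8 of the 9 genes. The capitals mark the core that interferon-stimulated response elements (ISREs) carry, GAAA and GAAA with any 2 bases between, or its reverse complement; overlapping matches are run together. The windows lie at chr7:102565433-102565732 (minus strand, Trim21), chr7:104244207-104244506 (plus, Trim34a), chr7:104465144-104465443 (minus, Trim30a), chr17:36836896-36837195 (plus, Trim26) and chr1:85649738-85650037 (plus, Sp100).
Trim21: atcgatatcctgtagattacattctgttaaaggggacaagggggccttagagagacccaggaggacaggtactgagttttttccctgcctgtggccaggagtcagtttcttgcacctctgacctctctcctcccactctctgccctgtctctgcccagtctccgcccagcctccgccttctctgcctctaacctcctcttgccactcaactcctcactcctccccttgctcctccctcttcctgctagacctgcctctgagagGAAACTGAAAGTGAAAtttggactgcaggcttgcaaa
Trim34a: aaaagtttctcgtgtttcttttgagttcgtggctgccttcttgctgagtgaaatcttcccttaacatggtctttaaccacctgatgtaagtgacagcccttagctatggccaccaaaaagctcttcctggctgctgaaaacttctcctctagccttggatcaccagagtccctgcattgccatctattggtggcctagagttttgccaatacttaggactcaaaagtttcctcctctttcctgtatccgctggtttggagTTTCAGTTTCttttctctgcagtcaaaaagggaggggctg
Trim30a: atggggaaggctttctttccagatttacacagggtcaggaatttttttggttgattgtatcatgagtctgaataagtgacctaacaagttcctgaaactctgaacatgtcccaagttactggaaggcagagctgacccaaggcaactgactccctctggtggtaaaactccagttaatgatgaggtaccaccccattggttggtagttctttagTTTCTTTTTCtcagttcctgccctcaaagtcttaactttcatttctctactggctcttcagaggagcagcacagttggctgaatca
Trim26: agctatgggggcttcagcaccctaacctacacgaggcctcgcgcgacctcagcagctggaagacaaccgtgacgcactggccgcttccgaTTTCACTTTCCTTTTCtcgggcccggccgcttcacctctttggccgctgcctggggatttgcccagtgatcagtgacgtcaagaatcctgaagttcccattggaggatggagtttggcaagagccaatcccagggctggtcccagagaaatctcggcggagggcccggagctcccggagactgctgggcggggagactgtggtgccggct
Sp100: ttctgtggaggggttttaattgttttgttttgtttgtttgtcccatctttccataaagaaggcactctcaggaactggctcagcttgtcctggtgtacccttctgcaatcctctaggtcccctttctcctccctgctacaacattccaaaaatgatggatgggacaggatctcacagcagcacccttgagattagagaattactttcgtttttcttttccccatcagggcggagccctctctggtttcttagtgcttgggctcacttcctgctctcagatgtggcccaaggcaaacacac
The ISRE core was found, on either strand, in windows of 4 of the 8 genes, against 3.993% of the 27025 genes that have a window. Trim21 had a pair of overlapping matches, 14 to 23 and 20 to 29 bases after its start. Trim34a had 1 match 11 to 20 bases after its start. Trim30a has a pair of windows at different starts, and each held 1 match, 27 to 36 bases before the start in the window shown and 3 to 12 bases after it in the other. Trim26 had overlapping matches 145 to 154 and 151 to 160 bases before its start. The matches of Trim34a, Trim30a and Trim26 were on the strand opposite to the gene, and those of Trim21 on the strand of the gene. No match was found in the windows of Trim56, Pml, Daxx or Sp100, which says only that these letters are not in these windows. The gamma-activated sequence TTCNNNGAA was found in 0 of the 8 genes, against 9.554% of all genes. GGG and CC with any 5 bases between, a loose form of the NF-kB site, were in 6 of 8 (all but Trim21 and Trim34a), against 53.52% of all genes. A match is a description of the letters and not of binding.

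In wild-type cells, 8 of the 9 genes rose with poly(I:C), and Sp100 did not pass the test. Of those measured on all untreated arrays, Pml rose by 3.61-fold and Trim34a by 50.9-fold, the ends of the range. Over all genes, 5.24% were called higher. The median log2 fold change of the 9 genes was 2.38, or 2.25 with Trim14 at its lower bound, beside -0.14 over all genes tested. For these 8 genes the 3 poly(I:C) arrays lay above all 3 untreated arrays, which held for 12% of all genes. Without the 4 arrays numbered 3 all 8 were still called, among 13% of all genes called higher.

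Trim21, a ubiquitin ligase and cytosolic antibody receptor that acts on antibody-coated virus, stood at -0.68, -0.89 and -1.88 on the untreated wild-type arrays and at 4.17, 4.16 and 3.42 with poly(I:C). All 3 treated arrays lay far above the untreated ones. Trim21 rose by 5.07 ± 0.45 (adjusted p = 0.000107), or 33.6-fold, and it was called in all 29 alternative settings.

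Trim30a, a mouse member of the group that includes the retrovirus restriction factor Trim5, stood at -5.57, -6.00 and -7.89 on the untreated wild-type arrays. Only the first of these was well above background. With poly(I:C) it stood at 0.74, 0.45 and -1.93, with the third array well below the others and still above every untreated array. Trim30a rose by a fitted 6.24 ± 0.93 (adjusted p = 0.00300), a size that rests on untreated arrays of which 1 was measured above background. It was 5.54 without untreated array 3, 7.08 without poly(I:C) array 3 and 3.32 with normexp background correction, and was called in each.

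Trim34a, a TRIM gene of the same chromosome 7 cluster, stood at -3.79, -4.32 and -4.48 untreated and at 1.79, 1.59 and 1.02 with poly(I:C) on its brighter probe. It rose by 5.67 ± 0.49 (adjusted p = 9.95e-05), and by 4.31 with normexp background correction. Its other probe stood between -5.77 and -4.60 untreated and between -3.17 and -2.53 with poly(I:C). That probe rose by 2.30 ± 0.41 (adjusted p = 0.00882), so both probes were called and the brighter one gave the larger change.

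Trim14, an adaptor of MAVS signalling that lacks a RING domain, was not well above background on any untreated wild-type array (-5.99, -7.61 and -6.24). It was well above background on all 3 poly(I:C) arrays, at -3.58, -3.96 and -4.93. Trim14 was at least 3.34-fold higher with poly(I:C) by its bound, and its fitted limma difference was called (adjusted p = 0.0167). The call was lost without untreated array 2 (0.0551) or without poly(I:C) array 1 (0.0882) or 2 (0.0789). Fixed terms for slide (0.140) or scan day (0.0835), or a fit of only the groups compared (0.0756), ended the call too. With normexp background correction the fitted Trim14 difference was 0.48 (adjusted p = 0.112), smaller than that bound.

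Trim26, a ubiquitin ligase that acts on the interferon pathway, stood at 2.64, 2.71 and 2.59 untreated and at 5.18, 5.13 and 4.36 with poly(I:C), a rise of 2.25 ± 0.29 (adjusted p = 0.00125). The third poly(I:C) array was the lowest of the treated arrays and lay above every untreated one. Trim56, a ligase with broad antiviral activity, stood at 1.82, 2.08 and 1.64 untreated and at 4.18, 4.04 and 3.22 with poly(I:C). Trim56 rose by 1.97 ± 0.28 (adjusted p = 0.00228).

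Pml, the scaffold of the nuclear bodies, stood at 2.48, 2.49 and 2.15 untreated and at 4.41, 4.60 and 3.66 with poly(I:C). It rose by 1.85 ± 0.22 (adjusted p = 0.000810), and its other probe by 2.54 ± 0.40 (adjusted p = 0.00398). Daxx, a histone H3.3 chaperone of these bodies, stood at 4.06, 3.87 and 4.24 untreated and at 6.84, 6.84 and 5.64 with poly(I:C), a rise of 2.38 ± 0.33 (adjusted p = 0.00215). Sp100, a constant constituent of the bodies, stood at -1.89, -1.80 and -1.56 untreated and at -2.03, -1.78 and -1.88 with poly(I:C). Its groups overlapped, and the difference was -0.15 ± 0.15 (adjusted p = 0.543), with a 95% interval from -0.49 to 0.19. Among the 3 body components, Pml and Daxx thus passed the test in wild-type cells and Sp100 did not.

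**Figure D1:**
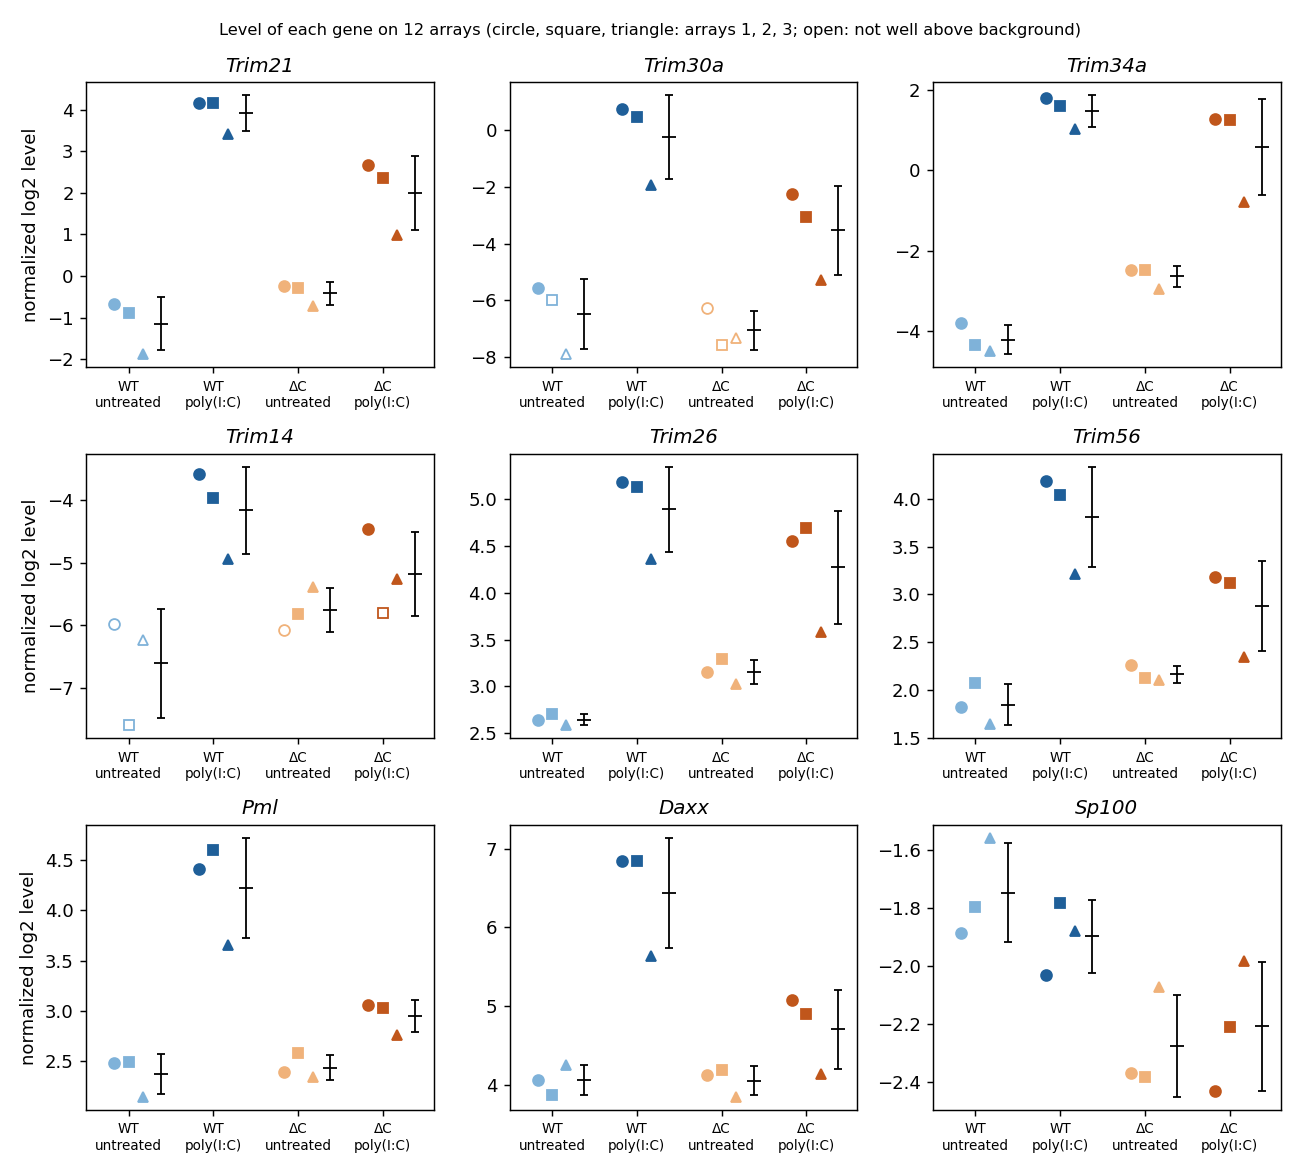
Normalized log2 level of each of the 9 genes (y axis, own scale in each panel) on every array of the 4 groups (x axis). Circles, squares and triangles are arrays 1, 2 and 3, open symbols mark arrays where the probe was not well above background, and black bars are mean ± SD (n = 3). In wild-type cells every poly(I:C) array lies above every untreated array for all genes but Sp100, and the ΔC poly(I:C) arrays lie below the wild-type ones for Trim21, Trim30a, Trim56, Pml and Daxx.

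In ΔC cells, 2 of the 9 genes passed the test with poly(I:C), Trim34a (9.26-fold) and Trim21 (5.36-fold), both higher. Over all genes, 1.82% were called higher. The fitted difference was above 0 for all 9 genes, with a median of 0.72 beside -0.05 over all genes. For 6 genes (Trim21, Trim26, Trim30a, Trim34a, Trim56 and Pml) the poly(I:C) arrays lay above all untreated arrays, which held for 8.79% of all genes.

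Trim34a stood at -2.47, -2.48 and -2.94 on the untreated ΔC arrays and at 1.27, 1.26 and -0.79 with poly(I:C). It rose by 3.21 ± 0.49 (adjusted p = 0.00700), and its call held when any 1 array was left out (3.90 without ΔC poly(I:C) array 3). Its other probe differed by 1.29 ± 0.41, which did not pass the test (adjusted p = 0.250). Trim21 stood at -0.24, -0.28 and -0.73 untreated and at 2.66, 2.36 and 0.98 with poly(I:C). It rose by 2.42 ± 0.45 (adjusted p = 0.0215), and the call was lost without any 1 of the 3 untreated ΔC arrays or ΔC poly(I:C) arrays 1 and 2, at adjusted p from 0.0617 to 0.102.

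Trim30a was not well above background on any untreated ΔC array (-6.26, -7.57 and -7.32) and was so on all 3 with poly(I:C) (-2.26, -3.06 and -5.27). With untreated arrays set at the lowest signal well above background, Trim30a was at least 5.91-fold higher with poly(I:C). The fitted difference did not pass the test (adjusted p = 0.125). With normexp background correction the limma difference of Trim30a was 1.14 (adjusted p = 0.412), smaller than that bound. Trim26 stood at 3.15, 3.29 and 3.03 untreated and at 4.55, 4.69 and 3.58 with poly(I:C), a difference of 1.12 ± 0.29 (adjusted p = 0.117). In both genes the third poly(I:C) array lay nearest to the untreated arrays. Without it, Trim26 (adjusted p = 0.00946) and Trim30a (adjusted p = 0.0370) passed the test. Each passed in only 1 of the 12 fits without 1 array. That array was singled out by the levels of these same genes, so these calls are no separate support.

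Trim56 stood at 2.27, 2.13 and 2.10 in untreated ΔC cells and at 3.19, 3.12 and 2.34 with poly(I:C), a difference of 0.72 ± 0.28 (adjusted p = 0.401). Pml stood at 2.39, 2.58 and 2.34 untreated and at 3.06, 3.03 and 2.76 with poly(I:C), a difference of 0.51 ± 0.22 (adjusted p = 0.448). Neither passed the test, though neither pair of groups overlapped. Daxx stood at 4.12, 4.19 and 3.85 untreated and at 5.08, 4.90 and 4.13 with poly(I:C), and these groups overlapped (0.65 ± 0.33, adjusted p = 0.523). Trim14 was well above background on 2 of 3 arrays in each ΔC group, with overlapping values and a difference of 0.58 ± 0.50 (adjusted p = 0.718). Sp100 stood at -2.37, -2.38 and -2.07 untreated and at -2.43, -2.21 and -1.98 with poly(I:C), again with overlap (0.07 ± 0.15, adjusted p = 0.905).

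With the replicate number as a block, 4 of the 9 genes were called in ΔC cells, among 2% of all genes called higher. The added genes were Trim26 (adjusted p = 0.0329) and Trim30a (adjusted p = 0.00542). Without the 4 arrays numbered 3, 7 of the 9 were called, among 6.52% of all genes called higher.

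**Figure D2:**
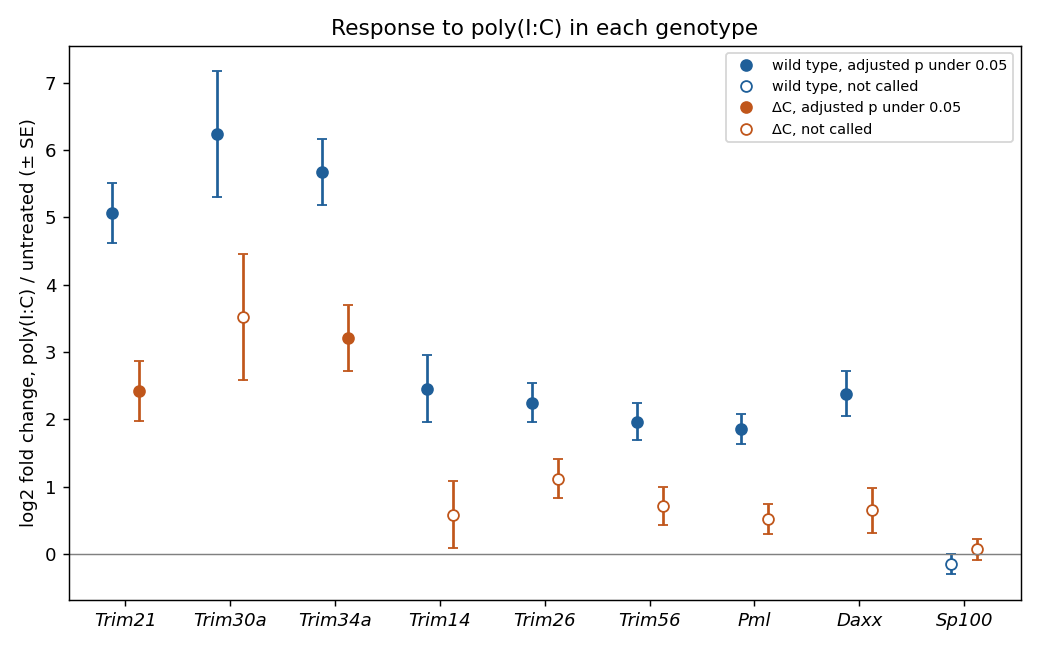
Log2 fold change with poly(I:C) relative to untreated cells (y axis, ± SE, 3 arrays a group) for the 9 genes (x axis) in wild-type and ΔC cells. Filled points have an adjusted p under 0.05 (8 in wild-type, 2 in ΔC cells); the points of Trim14 in wild-type and Trim30a in ΔC cells are fitted values against untreated arrays that were not well above background. The wild-type point is above the ΔC point for all genes but Sp100.

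In untreated cells, the genotypes differed in 2 of the 9 genes: Trim34a was 2.97-fold higher and Sp100 1.44-fold lower in ΔC cells. Over all genes, 10.9% were called higher and 10.2% lower, so 2 of 9 is near the background of 21.2% called in either direction. Trim34a differed by 1.57 ± 0.49 (adjusted p = 0.0448) on its brighter probe and by 0.26 ± 0.41 (adjusted p = 0.681) on the other. Its brighter probe's untreated arrays did not overlap between the genotypes (-4.48 to -3.79 against -2.94 to -2.47), but the call was lost without any 1 of the 6 untreated arrays and without wild-type poly(I:C) array 1 or 2, with adjusted p from 0.0518 to 0.130. Sp100 differed by -0.53 ± 0.15 (adjusted p = 0.0336), with all 3 untreated ΔC arrays below all 3 wild-type arrays. Leaving out wild-type untreated array 2 (0.0643) or 3 (0.0915), or ΔC untreated array 1 (0.117) or 2 (0.122), ended this call. The other 7 genes gave fitted differences of -0.57 (Trim30a) to 0.85 (Trim14, a bound of at least 1.10-fold) and did not pass the test. With the replicate block Trim21, at 0.73 ± 0.45 (adjusted p = 0.273 without the block), was called too (adjusted p = 0.0326), among 13.4% of all genes called higher. Without the 4 arrays numbered 3, 3 genes were called higher and 1 lower, among 17.8% and 18.6% of all genes.

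Among poly(I:C)-treated cells, 5 of the 9 genes were lower in ΔC than in wild-type cells: Trim30a (9.72-fold), Trim21 (3.76-fold), Daxx (3.33-fold), Pml (2.42-fold) and Trim56 (1.91-fold). Over all genes, 9.04% were called lower. All 9 fitted differences were below 0, with a median of -1.02 beside 0.01 over all genes. The same 5 genes had groups that did not overlap, which held in this direction for 18.9% of all genes.

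The nuclear body genes Pml and Daxx gave the calls that did not turn on any 1 array. Pml differed by -1.27 ± 0.22 (adjusted p = 0.00329), and its highest ΔC array (3.06) lay below its lowest wild-type array (3.66). Its other probe differed by -1.37 ± 0.40 (adjusted p = 0.0341). Daxx differed by -1.73 ± 0.33 (adjusted p = 0.00556), with 5.08 as the highest ΔC and 5.64 as the lowest wild-type value. Both stayed called in all 12 fits without 1 array, with adjusted p up to 0.0187 for Pml and 0.0283 for Daxx.

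Of the antiviral genes, Trim21 differed by -1.91 ± 0.45 (adjusted p = 0.0136), Trim30a by -3.28 ± 0.93 (adjusted p = 0.0316) and Trim56 by -0.93 ± 0.28 (adjusted p = 0.0396). Trim21 lost its call without wild-type poly(I:C) array 1 (0.0572) or 2 (0.0563). Trim30a lost it without poly(I:C) array 1 (0.120) or 2 (0.112) of the wild type, or array 2 (0.0633) or 3 (0.0865) of ΔC cells. The size for Trim30a was -2.41 without ΔC poly(I:C) array 3, -3.92 without ΔC poly(I:C) array 1, -4.12 without wild-type poly(I:C) array 3 and -2.45 with normexp background correction. Trim56 lost it without 1 of 7 arrays (untreated: wild-type 1, ΔC 1 or 2; with poly(I:C): wild-type 1 or 2, ΔC 2 or 3), with adjusted p from 0.0545 to 0.149. Trim14 (-1.02 ± 0.50), Trim34a (-0.89 ± 0.49), Trim26 (-0.62 ± 0.29) and Sp100 (-0.31 ± 0.15) did not pass the test, at adjusted p from 0.165 to 0.232, and their groups overlapped. Without the 4 arrays numbered 3, 7 of the 9 genes were called lower, among 16.9% of all genes.

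The order of the 4 groups was thus alike for Trim21, Trim26, Trim34a and Trim56. The mean was highest in wild-type cells with poly(I:C), then in ΔC cells with poly(I:C), then in untreated ΔC and last in untreated wild-type cells. Of the neighbours in that order, wild-type and ΔC poly(I:C) cells differed for Trim21 and Trim56, ΔC cells with and without poly(I:C) for Trim21 and Trim34a, and the untreated genotypes for Trim34a; the other neighbours did not differ past the threshold. Pml had this order too, and only the neighbours treated with poly(I:C) differed in it. Trim14 and Trim30a were not well above background on any array of 1 untreated group, so their untreated groups were not ranked. In Pml and Daxx the untreated genotypes differed by 0.06 and -0.01, with adjusted p of 0.862 and 0.992. In Sp100 the order was untreated wild-type, wild-type with poly(I:C), ΔC with poly(I:C) and untreated ΔC, and no neighbours in it passed the test.

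The fitted response was smaller in ΔC than in wild-type cells for 8 of the 9 genes, yet no gene passed the direct test of that difference over all genes. Among these 8 are Trim30a and Trim14, whose sizes were not measured. In limma the lowest adjusted p was 0.369, and 7 of 9 had an unadjusted p under 0.05, beside 5.41% of all genes. Over all genes, 0.0129% were called with a smaller response and 0.0194% in either direction. The fitted difference was -2.65 ± 0.63 for Trim21, -2.46 ± 0.69 for Trim34a, -1.73 ± 0.47 for Daxx, -1.34 ± 0.32 for Pml, -1.25 ± 0.40 for Trim56 and -1.13 ± 0.41 for Trim26. The fitted values of Trim30a (-2.72 ± 1.32) and Trim14 (-1.87 ± 0.70) rest on an untreated group with no array well above background and are no measure of size. With normexp background correction the Trim14 value was -0.29 (adjusted p = 0.958). Sp100 lay on the other side of 0, at 0.22 ± 0.22. The median of the 9 fitted values was -1.73, beside 0.07 over all genes.

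As a share of the wild-type log2 rise, the ΔC value was 56.6% for Trim34a, 49.8% for Trim26 and 47.8% for Trim21. It was 36.4% for Trim56, 27.8% for Pml and 27.4% for Daxx. No share is given for Trim30a and Trim14, which have only a bound in 1 genotype. Whether these shares differ between genes was not tested. Trim21 was called for a smaller response with the replicate block (adjusted p = 0.0171), among 0.24% of all genes, and no other of the 9 was. Without wild-type poly(I:C) array 3, Pml (adjusted p = 0.00780) and Daxx (adjusted p = 0.0215) were called, each in only 1 of the 12 fits without 1 array. This array held the lowest wild-type poly(I:C) level of both genes, so these calls are no separate support. Without the 4 arrays numbered 3, 6 of the 9 were called, among 2.33% of all genes.

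Taking arrays of the same number together, the ΔC rise was below the wild-type rise in all 3 pairs for 8 of the 9 genes, Trim14 and Trim30a among them with untreated signals not well above background. The share of all genes with this pattern was not determined. The 8 genes share the same arrays, so they are not 8 independent cases. For Trim21 the wild-type rises were 4.86, 5.05 and 5.30 and the ΔC rises 2.90, 2.65 and 1.72. For Daxx they were 2.78, 2.97 and 1.39 in wild-type and 0.96, 0.71 and 0.29 in ΔC cells. For Pml they were 1.93, 2.11 and 1.51 in wild-type and 0.67, 0.45 and 0.42 in ΔC cells. In Daxx and Pml both genotypes gave their smallest rise in pair 3, while Trim21 rose most in wild-type and least in ΔC cells there.

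**Figure D3:**
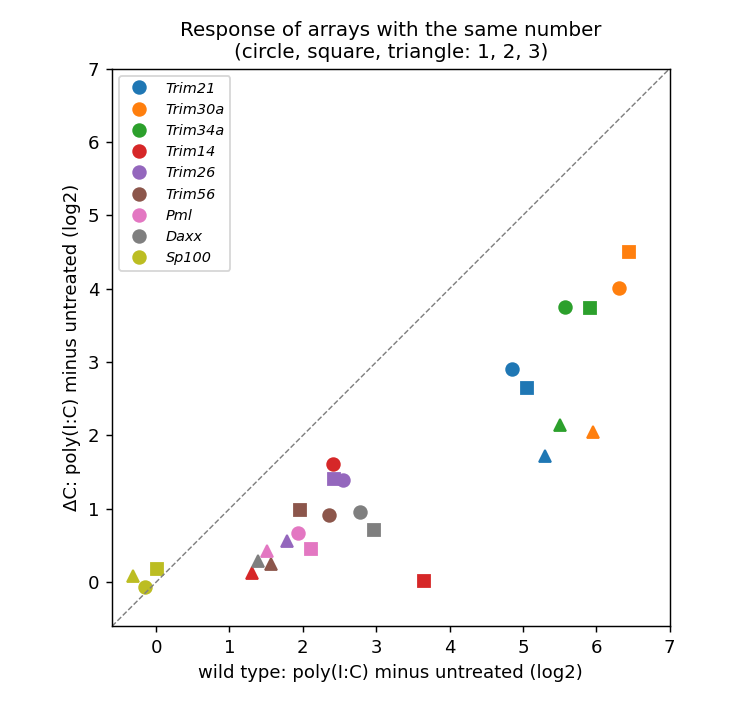
Difference between the poly(I:C) and untreated arrays of the same number, in wild-type (x axis) and ΔC cells (y axis), in log2 units, for the 9 genes. Circles, squares and triangles are numbers 1, 2 and 3, and the dashed line marks equal differences. Points of Trim14 and Trim30a rest in part on untreated signals not well above background. All points of 8 genes lie below the line, and those of Sp100 lie near 0 on both axes.

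The arrays sat on 5 slides scanned on 3 days, and slides and days held unequal mixes of groups. No slide held all 4 groups. Within 1 slide that held both wild-type groups, Trim21 differed by 5.05 with poly(I:C). Within another slide, Trim21 differed by 2.90 with poly(I:C) in ΔC cells and by -1.51 between the genotypes with poly(I:C). Pml differed by 2.11, 0.67 and -1.35 in the same comparisons. These values rest on 1 array against 1. In each comparison, all called genes kept their sign within the slide and within the scan day that held both groups.

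The TRIM genes that neighbour Trim34a and Trim30a on chromosome 7 rose as well in wild-type cells. In the RefSeq order this cluster holds 11 TRIM genes, of which 7 were tested: Trim6, Trim34a, Trim12a, Trim34b, Trim12c, Trim30a and Trim30d. All 7 rose in wild-type cells, by 2.10 ± 0.48 for Trim6, 5.36 ± 0.43 for Trim12a, 6.63 ± 0.81 for Trim12c and 6.90 ± 0.89 for Trim30d; Trim34b, not well above background on any untreated wild-type array, was at least 12.5-fold higher. Trim12c and Trim30d were well above background on 1 of 3 untreated wild-type arrays. In ΔC cells, Trim34b (3.50 ± 0.61), Trim34a (3.21 ± 0.49) and Trim12a (2.43 ± 0.43) rose. The other 4 did not pass the test: Trim6 (-0.08 ± 0.48, adjusted p = 0.969), Trim12c (2.39 ± 0.81, adjusted p = 0.298), Trim30a (adjusted p = 0.125) and Trim30d (adjusted p = 0.112 for the fitted difference). The bound for Trim30d was at least 8.24-fold. Beside these counts, 5.24% of all genes were called higher in wild-type and 1.82% in ΔC cells. Trim34a and Trim30a were already counted among the genes followed above, so these counts are not separate from the earlier ones. Members of this cluster are near-identical copies in part, so a probe may read more than 1 of them, and how far each probe does so was not tested.

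**Figure D4:**
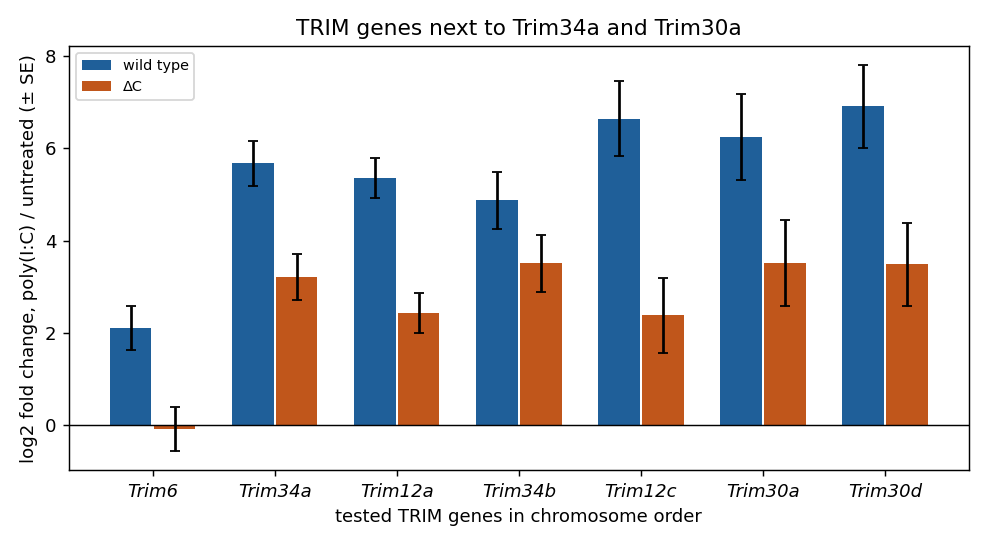
Log2 fold change with poly(I:C) relative to untreated cells (y axis, bars ± SE, 3 arrays a group) for the 7 tested TRIM genes around Trim34a and Trim30a (x axis, in chromosome order), in wild-type and ΔC cells. The bars of Trim34b in wild-type cells and of Trim30a and Trim30d in ΔC cells are fitted against arrays that were not well above background. All wild-type bars stand above their ΔC neighbours, and the ΔC bar of Trim6 is at -0.08.

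Of 59 other TRIM genes listed, 42 were tested. In wild-type cells 8 rose, beside 5.24% of all genes called higher, and none fell. The median was 0.10, and most of the family did not pass the test. Beyond the chromosome 7 cluster the genes that rose were Trim69 (3.15), Trim25 (2.79), the ligase that activates RIG-I, and Trim11 (0.46). In ΔC cells 3 rose (Trim34b, Trim12a and Trim69), beside 1.82% of all genes called higher. Between the genotypes with poly(I:C) 4 were lower in ΔC cells, led by Trim30d (-3.41), Trim12a (-1.96) and Trim25 (-1.47). These 4 among 42 are near the 9.04% of all genes called lower. With poly(I:C) 2 were higher in ΔC cells, Trim62 (1.08) and Trim44 (0.48), and no share of all genes was set beside them. In untreated cells 5 were higher in ΔC cells, among them Trim6 (1.86), Trim38 (1.19) and Trim12c (a fitted 3.47, with 1 of 3 wild-type arrays well above background), and 2 were lower, Trim54 (-2.59) and Trim47 (-0.60). Over all genes, 21.2% were called in either direction in this comparison. None was called for a difference in response.

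Of 32 other PML body genes, 31 were tested. Only 2 rose in wild-type cells, the exonuclease Isg20 (1.71 ± 0.37, adjusted p = 0.0228) and the SP100 relative Sp140 (1.08 ± 0.24, adjusted p = 0.0261), and the median was -0.01. None passed the test in ΔC cells. With poly(I:C), 4 were lower in ΔC than in wild-type cells, among them Isg20 (-1.46), the histone chaperone Asf1a (-0.72) and the deubiquitinase Usp7 (-0.37). The counts of 2 and 4 among 31 are near the shares of all genes, 5.24% called higher and 9.04% called lower. Usp7 was also lower in untreated ΔC cells (-0.35). None was called for a difference in response.

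Genes of RNA and DNA sensing and of interferon signalling were also measured. Of 24 sensing partners, 9 rose in wild-type cells, led by Ifih1 (6.31), which encodes MDA5, Irf7 (5.92) and Tlr3 (5.14). In ΔC cells 4 rose, among them Tnfaip3 (3.52), Ifih1 (3.33) and Ddx58 (2.48), which encodes RIG-I. The shares of all genes called higher were 5.24% in wild-type and 1.82% in ΔC cells. In untreated cells 4 were higher and 4 lower in ΔC cells, with Ifih1 (2.69), Tlr3 (2.38) and Cgas (1.90) among the higher and Sting1 (-0.82) among the lower. Of all genes, 10.9% were called higher and 10.2% lower in this comparison. Of 13 interferon signalling genes, 8 rose in wild-type and 6 in ΔC cells, and their median in wild-type cells was 3.12. Ifnb1, which encodes interferon-beta, was at least 4744-fold higher with poly(I:C) in wild-type cells, and its poly(I:C) level averaged 6.31 ± 0.65 in wild-type and 5.15 ± 0.15 in ΔC cells (SD, n = 3; difference -1.17 ± 0.67, adjusted p = 0.251). Stat2 rose by 4.31 in wild-type and 2.54 in ΔC cells. With poly(I:C), 5 of the 13 were lower in ΔC cells, among them Usp18 (-2.01) and Socs1 (-1.83), beside 9.04% of all genes called lower. None of the sensing or interferon genes was called for a difference in response.

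Across the 12 arrays, the 28 pairs among the 8 genes without Sp100 had Pearson correlations from 0.780 to 0.980, and the 8 pairs with Sp100 from -0.281 to 0.113. These describe 4 groups that share arrays, scaling and treatment. Among 13669 other genes, the level of Trim21 was most like that of Irgm2 (r = 0.997), AW011738 (0.994) and Stat2 (0.994). Trim26 was most like Dhx58 (0.988), Trim30a like Rbm43 (0.984), Trim34a like BC049762 (0.989) and Trim56 like Parp12 (0.993). Pml was most like Ifi47 (0.987) and Daxx like Rnf31 (0.992), and Ifi47 was among the top 3 for Daxx as well (0.987). Trim14 was most like Fam71f2 (0.930). Sp100 was most like Pfn1 (0.985), Ywhaz (0.969) and Pqbp1 (0.962).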

How the data were processed

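RNA of 12 samples was hybridised to single-colour Agilent arrays. Per the file headers, Feature Extraction 10.7.3.1 gave the deposited intensity of each spot after background subtraction, and the authors' deposited table holds log2 values of unstated processing. In that table, 1 column (ΔC with poly(I:C), array 1) correlated at -0.0614 with its own scanner file and the others at 0.936 or more. Its columns share a median of 5.277, and its direction matched the scanner files for those other columns. limma appears in the submitters' processing notes.

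Here log2 intensity was averaged over a probe's spots, and the 75th percentile of each array was subtracted. Probes were named through RefSeq accessions (27235 of 55681). Genes entered the fit when at least 1 group had a probe well above background on each of its 3 arrays, and the brightest probe stood for the gene. One limma fit (3.58.1, R 4.3.3) over the 4 groups gave 5 contrasts with 8 residual degrees of freedom, and it was tested on simulated data. A lower bound sets a group not well above background at the lowest signal well above background on each array. Arrays of the same number deviated together (r = 0.115 to 0.651 in all 12 pairs), so the replicate block is given where it changes a call. Named genes are the 9 members, the 3 largest called changes a direction in each list, and the 3 genes most like each member over 12 arrays; Trim69, Trim25 and Trim11 in wild-type cells and the chromosome 7 neighbours were named after their values were seen. The members and lists were chosen with earlier results of these data known. Alternatives varied the scaling, background correction, filter, probe, batch, variance model and arrays. The number of arrays limits the precision. One gene of the interferon list is not reported here by name.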

Additional observations from a re-analysis of the deposited data

Results flagged for a closer look

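The response of Trim21 to poly(I:C) differed between the genotypes by -2.65 on the log2 scale when the replicate number was a block (limma, adjusted p = 0.0171), and the ΔC rise was below the wild-type rise in all 3 pairs. The pairs are made of the arrays in that fit, so they add no separate support. Without the block the same difference had an adjusted p of 0.369. Over its alternatives the adjusted p ranged from 0.00504 to 0.938.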

How the results depend on the processing

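Of the values of single genes under the alternatives, 1182 kept their side of the threshold, 76 fell below it, 38 passed it, and 0 reversed while called. Some values that stayed uncalled changed direction. For Daxx between the untreated genotypes, 19 of 29 alternatives kept the sign. In wild-type cells 6 to 8 genes were called under the alternatives that kept all arrays or left out those numbered 3, and 7 to 8 with 1 array left out; Trim30a lost its call only with slide as a fixed term (adjusted p = 0.0706), and Trim14 with normexp (0.112), only the groups compared (0.0756), slide (0.140) or scan day (0.0835) as a fixed term and 3 of the fits without 1 array. The count for poly(I:C) in ΔC cells (2) was 0 in the authors' deposited table, with slide or scan day as a fixed term and with only the groups compared, 1 in the authors' table without its mismatched column, 4 with the replicate block, 6 with array weights, 7 without the 4 arrays numbered 3, and 1 to 4 with 1 array left out. The untreated genotype count (2) was 0 with median scaling, no filter, the authors' table, or slide or scan day as a fixed term. It was 1 with quantile normalization, normexp, the mean of a gene's probes, slide or scan day as a random block, or a trended robust fit, 4 without the arrays numbered 3, and 0 to 2 with 1 array left out. The genotype count with poly(I:C) (5) was 2 with slide or scan day as a fixed term, 3 with only the groups compared, 8 with array weights and 2 to 5 with 1 array left out. Trim56 also lost its call there with median scaling (adjusted p = 0.0716) or no filter (0.0596), and was called in 17 of 29 alternatives. The count for the difference of responses (0) was 1 with the replicate block, 6 with array weights, 6 without the arrays numbered 3 and 0 to 2 with 1 array left out. The causes were not tested, other than the fewer arrays in some fits. Slide and scan day as fixed terms were added after the data were seen. The replicate block changed no call of the 9 genes other than those given: Trim26 and Trim30a in ΔC cells, Trim21 between untreated genotypes and Trim21 in the difference of responses. Signal over background limits Trim14 and Trim30a, which have only bounds in some groups.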
